A study of Mus musculus with 12 samples.

Results

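The comparison described here sets the 4 RNA-seq libraries of Gpr124-/- brain endothelium against the 4 libraries of Gpr124deltaC/deltaC brain endothelium. These 8 of the 12 libraries in the series were chosen by the genotype in their labels, and all 16637 genes with enough counts, of 49315 in the files, were tested. The other 4 libraries are wild type (WT) and are given beside the mutants. Each library held CD31+ cells sorted from the forebrain of 1 mouse embryo at E15.5, with CD45+ and CD140b+ cells gated out. Gpr124-/- embryos carry a constitutive null allele of Gpr124, so the gene is lost in every tissue. The deltaC allele was made by CRISPR editing, with a V5 tag and a stop codon placed after the last transmembrane segment, so that both gene copies encode a receptor without its intracellular domain. The study describes less of this protein at the cell surface, so deltaC/deltaC keeps a reduced amount of a receptor without its tail, where Gpr124-/- has none. The embryo labels begin with J or L for deltaC/deltaC (JE3, JE4, LE2, LE5), with K or M for Gpr124-/- (KE4, ME1, ME4, ME5), and with J, K or L for WT (JE1, JE6, KE8, LE6). No letter holds both mutants, so what the letter stands for and the genotype cannot be told apart in this comparison. Values in every library are listed below in the order KE4, ME1, ME4, ME5 and JE3, JE4, LE2, LE5.

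GPR124, listed in the files as Adgra2, is an adhesion G protein-coupled receptor of endothelial cells. With the membrane-anchored protein RECK it lets WNT7A and WNT7B signal through Frizzled receptors and LRP5 or LRP6, which stabilises beta-catenin. In brain endothelium this signal drives vessel ingrowth and the blood-brain barrier: tight junctions, nutrient transporters and low transcytosis. The intracellular domain ends in a motif that binds PDZ proteins such as DLG1 and MAGI3.

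Gene counts summed to between 13877572 and 22551163 reads in a library. Between the mutants, 444 genes were higher in Gpr124-/- (2.67% of those tested) and 322 were lower (1.94%), with an adjusted p below 0.05 and more than a change of 1 on the log2 scale. These are the called genes in what follows. At the adjusted p alone, 821 were higher (4.93%) and 647 were lower (3.89%). The test was edgeR's quasi-likelihood test on counts with Benjamini-Hochberg adjustment over all tested genes, and every adjusted p given below is from it. The normalised counts (CPM) of the mutants did not overlap for 638 of the 766 called genes, against 13.9% of all tested genes. The median log2 fold change over all tested genes was -0.02. Levels are given as TPM, deposited values scaled for gene length and depth. On TPM the two-sided exact test, which permutes the 8 mutant libraries in all 70 ways, could give no p below 0.0286. Any gene whose mutants do not overlap reaches that value, so no exact p is given for genes that were chosen for their separation.

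**Figure D1:**
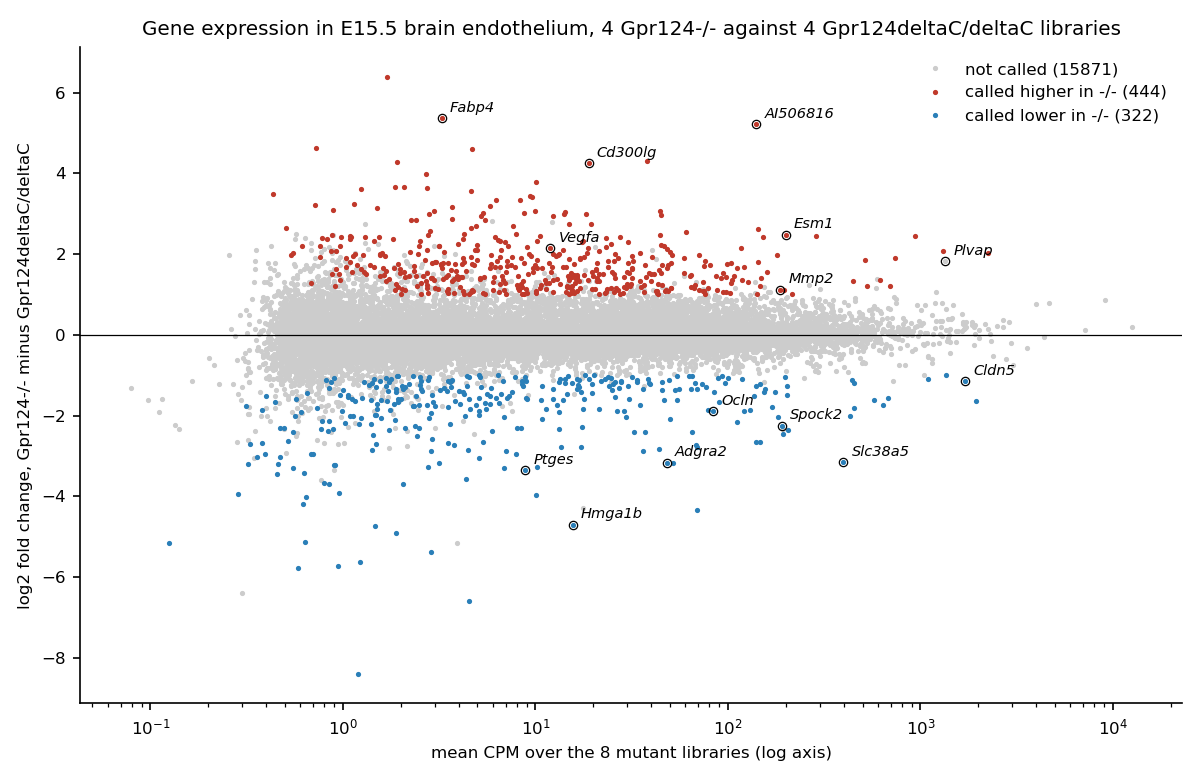
Log2 fold change of Gpr124-/- over deltaC/deltaC (vertical axis) against mean CPM over the 8 mutant libraries (horizontal log axis), with 1 point per tested gene and named genes circled. The 444 genes called higher are red, the 322 called lower are blue and all others are grey; transporters and junction genes such as Slc38a5 and Cldn5 lie below 0 at high expression, and Vegfa and Esm1 lie above it.

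Adgra2 (ENSMUSG00000031486; chromosome 8 of GRCm38, 27085583 to 27123436) was expressed at 6.29, 4.03, 4.57 and 4.54 TPM in Gpr124-/- and at 63.4, 40.8, 34.1 and 35.2 TPM in deltaC/deltaC. All knockout libraries lay far below all deltaC/deltaC libraries, which overlapped the WT range of 28.3 to 51.1 TPM. The log2 fold change was -3.17 (SE 0.30, adjusted p = 0.000152). JE3 had the most Adgra2 of the deltaC/deltaC libraries and the lowest summed TPM of barrier transporters. Of 110 tested genes within 10 Mb of Adgra2, 3 others were called, Angpt2, Plekha2 and Dusp4, all higher in the knockout. That is 2.75% of these neighbours, against 4.60% of all tested genes. Each of the 3 lost the test with single libraries left out: Angpt2 without JE3, LE5, ME1 or ME5 (log2 fold change 0.73 to 1.02 in place of 1.07), Plekha2 without JE4, ME1, ME4 or ME5 (1.53 to 1.63 in place of 1.67), and Dusp4 without JE1, JE6, JE4, LE2, LE5, ME1, ME4 or ME5 (1.05 to 1.40 in place of 1.24). With the label letter added as a term in the fit, Plekha2 stood at -0.36 (SE 0.37). In that fit the knockout is set against WT through KE4 and KE8 alone. The deltaC/deltaC side is set against WT through the J and L libraries.

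At some called genes 1 WT library sat with the knockout. At 74 of the 638 called genes without overlap, the WT library KE8 lay nearer to the Gpr124-/- mean while the other 3 WT libraries lay nearer to the deltaC/deltaC mean. The same count was 6 for JE1, 7 for JE6 and 6 for LE6. Of the 74 genes, 23 were higher and 51 lower in the knockout, 19 lay on chromosome 11 (25.7% of them, against 7.74% of all tested genes) and 13 on chromosome 17 (17.6% against 4.54%). AI506816, a transcript of unknown function, stood at 162, 148, 192 and 202 TPM in the knockout, at 4.94, 5.0, 5.04 and 4.26 TPM in deltaC/deltaC, and in WT at 140 TPM in KE8 and 3.87 to 4.09 TPM in the others. Hmga1b, a retrogene copy of the chromatin protein gene Hmga1, stood at 2.02, 1.5, 2.29 and 2.32 TPM against 44.9, 99.2, 38.6 and 36.8 TPM, and KE8 had 1.85 TPM where the other WT libraries had 34.5 to 84.8 TPM. For these genes the knockout libraries and KE8 shared a level that no other library had. With the letter term the differences were 0.25 (SE 0.60) for Hmga1b, -0.045 (SE 0.25) for AI506816 and 0.28 (SE 0.26) for 6330403K07Rik. Genes picked because KE8 lay with the knockout give values near 0 in that fit, so these show no reversal. Of the 30 largest changes named below 6 were of this kind, Hmga1b, 6330403K07Rik, Rbm45, AI506816, Olfr1372-ps1 and Mocs1. Of the gene lists used below they held 2 members, among them H2-K1. Without the 74 genes the counts were 421 higher and 271 lower, a tally added after the data were seen, and what sets these genes apart was not tested.

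Endothelial markers were high in all 8 libraries, and blood cell markers differed between the mutants. The summed TPM of 12 endothelial markers was 6738 to 8209 in Gpr124-/- and 5572 to 8127 in deltaC/deltaC, and of the 12, 4 passed the test as higher and 2 as lower, none of them past the fold threshold (median 0.24). The sum of the erythroid markers was 25278, 54616, 17928 and 35693 TPM in Gpr124-/- and 9649, 9971, 5491 and 7828 TPM in deltaC/deltaC, without overlap. Of 13 tested erythroid markers, 10 were called higher (median log2 fold change 1.90), for example the globin Hbb-bs (2.08, SE 0.32, adjusted p = 0.00188) and the haem synthesis enzyme Alas2 (2.55, SE 0.35, adjusted p = 0.00101). Platelet markers summed to 698, 2400, 1835 and 2510 TPM in the knockout and to 517, 522, 614 and 681 TPM in deltaC/deltaC, so KE4 lay beside the deltaC/deltaC range. Of 11 tested, 9 were called higher (median 1.72), and the count was 2 without ME1, 3 without JE4 or ME5 and 5 without LE5. None of the erythroid markers (median 1.26) and 1 of the platelet markers (median 0.58) was called with the letter term. Macrophage markers summed to 146 to 211 TPM against 64.7 to 145 TPM, with Ptprc, Cx3cr1 and Aif1 under 1 TPM in all 8 libraries. Of 6 tested, P2ry12 and Fcer1g were called higher and Mrc1 lower. The count called higher was 1 without JE1, JE6, KE8, LE6, JE4, LE2, ME1, ME4 or ME5, and 0 with the letter term. P2ry12 stood at -0.20 (SE 0.44) with the letter term, in place of 1.89. Mrc1 (log2 fold change -1.75, adjusted p = 0.0446) lost the test without JE1, JE6, LE6, JE4, LE2, LE5, ME1, ME4 or ME5 (-1.42 to -1.75). Pericyte markers summed to 45.8 to 59.9 TPM and 23.2 to 58.0 TPM, with Abcc9 and Kcnj8 called higher of 11. Without JE3, LE2, LE5, ME1, ME4 or ME5 1 of the pericyte markers was called, and none with the letter term. None of 15 neuron, 9 progenitor, 6 fibroblast or 4 lymphatic markers was called, though 1 progenitor marker was without JE3, and 1 lymphatic marker was without LE2 and 2 without KE4. In bulk libraries fewer cells of a type and less RNA per cell cannot be told apart, and the part of these markers in the results below was not tested.

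**Figure D2:**
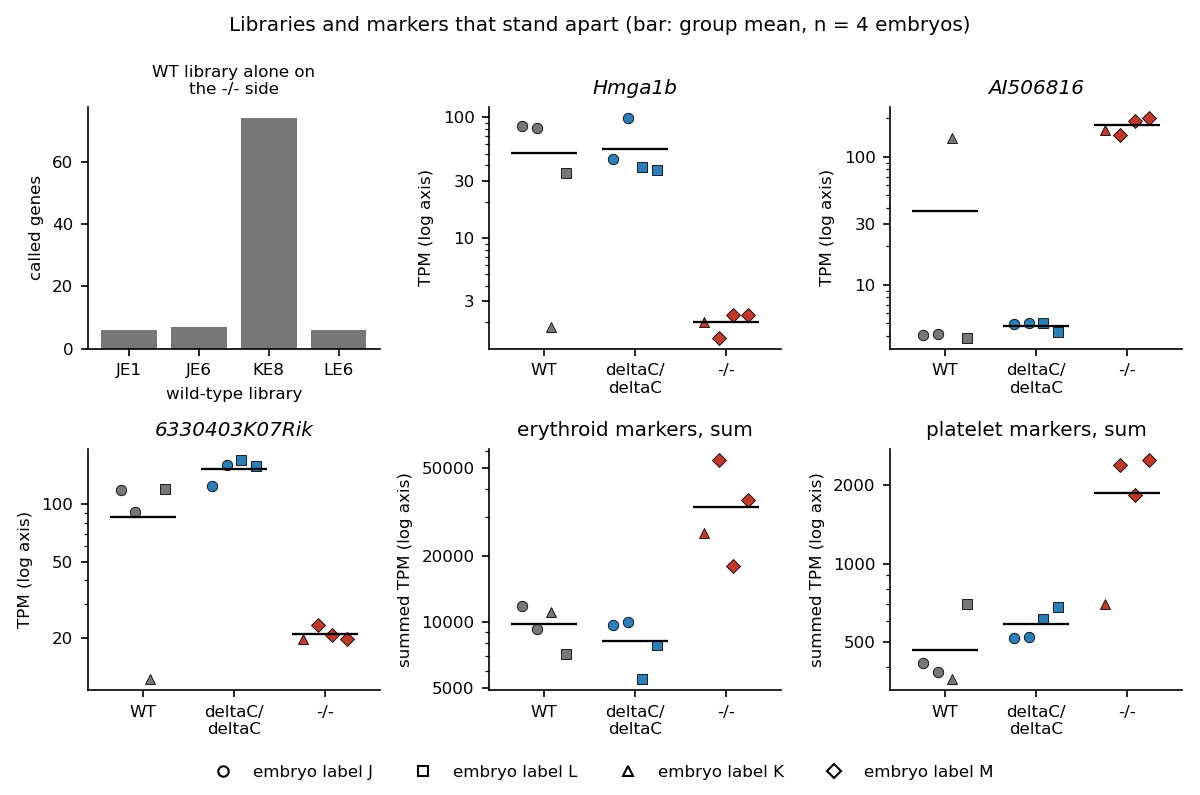
The first panel counts called genes at which 1 WT library alone lies on the Gpr124-/- side; the other panels give TPM, or summed marker TPM, in every library on log axes, with 1 point per embryo, the shape for the label letter and a bar for the mean of 4. KE8 holds 74 such genes and sits at the knockout level for Hmga1b, AI506816 and 6330403K07Rik, erythroid sums of Gpr124-/- start at 17928 TPM above all deltaC/deltaC libraries, and KE4 has a platelet sum of 698 TPM beside the deltaC/deltaC range.

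In TPM, JE3 and the WT library JE6 were lowered by a single non-coding gene. Gm23935 took 14.1% of all TPM in JE3 and 1.22% to 3.04% in the other 7 mutant libraries, and it took 12.5% in JE6 and 1.75% to 2.47% in the other WT libraries. A larger share of this gene reduces the TPM of every other gene in the library. In CPM with trimmed mean of M-values (TMM) factors JE3 was still the lowest deltaC/deltaC library for Slc38a5, at 528 CPM against 658, 717 and 960. The log2 fold changes come from counts and not from TPM.

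Transporters of the blood-brain barrier were lower in Gpr124-/- than in deltaC/deltaC. Of 36 tested members of a list of barrier transporters, 17 were called lower and 26 passed the test as lower, while 1 passed as higher and none was called higher. The list's median log2 fold change was -0.92, against -0.02 over all tested genes. Summed over the list, expression was 6740, 4505, 6172 and 5764 TPM in Gpr124-/- and 8365, 11381, 11168 and 12805 TPM in deltaC/deltaC, with 17364 to 19651 TPM in WT. The 3 genotypes did not overlap, and deltaC/deltaC lay between. Slc38a5, a glutamine and small neutral amino acid transporter, stood at 221, 62.9, 81.6 and 58.7 TPM in the knockout and at 607, 893, 1018 and 1335 TPM in deltaC/deltaC. KE4 was well above the other knockout libraries and still below every deltaC/deltaC library, and the log2 fold change was -3.15 (SE 0.37, adjusted p = 0.000366). WT libraries had 2861 to 4271 TPM. Slc22a8, the organic anion transporter OAT3, stood at 13.9, 4.20, 5.16 and 5.65 TPM against 37.7, 48.9, 61.2 and 72.1 TPM, again with KE4 the highest knockout, and fell by 2.89 on the log2 scale (SE 0.30, adjusted p = 0.000235).

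Mfsd2a, which carries lysophospholipids with omega-3 fatty acids and restrains transcytosis, was at 114, 45.7, 121 and 69.8 TPM in Gpr124-/- and at 276, 387, 453 and 724 TPM in deltaC/deltaC. The groups did not overlap and the log2 fold change was -2.35 (SE 0.28, adjusted p = 0.000447). Slco1c1, the thyroxine transporter OATP1C1, had 17.0, 7.92, 12.6 and 8.88 TPM against 30.7, 57.8, 64.8 and 104 TPM (-2.41, SE 0.29, adjusted p = 0.000459). Its WT level of 318 to 531 TPM was far above both mutants. The cationic amino acid transporter Slc7a1 had 119, 52.9, 71.0 and 57.0 TPM against 223, 222, 265 and 306 TPM and fell by 1.74 (SE 0.20, adjusted p = 0.000358). Slc35f2, a carrier of the SLC35 family, had 44.6, 29.6, 35.2 and 26.8 TPM against 60.8, 89.5, 98.6 and 106 TPM and fell by 1.33 (SE 0.15, adjusted p = 0.000277). In all of these KE4 or ME4 led the knockout libraries, and JE3 or JE4 was the lowest deltaC/deltaC library.

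Slc38a3, Slc40a1 and Tfrc fell as well. Log2 fold changes were -1.21 for Slc38a3 (a glutamine carrier), -1.61 for Slc40a1 (the iron exporter ferroportin) and -2.16 for Tfrc (the transferrin receptor), with adjusted p up to 0.00211. Tfrc is also a gene of red cell precursors, whose markers rose, and its TPM was 10.6 to 26.5 in the knockout against 39.1 to 132. Lrp8, an apolipoprotein E receptor, fell by 1.48 (adjusted p = 0.00215). The efflux pump gene Abcb1a (P-glycoprotein) fell by 1.20 (SE 0.20, adjusted p = 0.00334), with 21.1 to 47.9 TPM against 54.6 to 90.6 TPM. The deltaC/deltaC level of Abcb1a overlapped the WT range of 71.2 to 110 TPM. Slc2a1, the glucose transporter GLUT1, stood at 1426 to 2114 TPM in the knockout and at 2132 to 4028 TPM in deltaC/deltaC. KE4 and JE3 were almost level, and the fall of 0.75 (SE 0.13, adjusted p = 0.0041) passed the test without reaching the fold threshold. Abcg2, the efflux pump BCRP, fell by 0.75 (adjusted p = 0.00866), and its deltaC/deltaC level of 274 to 409 TPM overlapped the WT range of 249 to 335 TPM. The member that passed as higher was Abcc1, at 3.84 to 5.87 TPM against 2.55 to 4.37 TPM (0.59, adjusted p = 0.0424), and it lost the test without any of 8 libraries (JE1, JE6, LE6, JE3, JE4, LE5, ME4, ME5; log2 fold change 0.46 to 0.58).

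Across leave-one-out fits 13 to 19 transporters were called lower, fewest without LE5 and most without KE4. With the letter term, where only the knockout side rests on KE4 and KE8, the median was -0.77 and 32 of 36 kept their direction.

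Some tight junction genes were lower in the knockout as well. Summed over the list, expression was 5168, 3996, 4342 and 4758 TPM in Gpr124-/-, 5676, 7528, 8646 and 9817 TPM in deltaC/deltaC and 10565 to 14068 TPM in WT, without overlap. A large part of each sum is Cldn5, whose values follow, so this separation is not that of the list as a whole. Of 22 tested, 7 were called lower, 8 passed the test as lower and none passed as higher (median log2 fold change -0.65). Cldn5, the main claudin of brain endothelium, stood at 2721, 1877, 1881 and 2186 TPM in Gpr124-/-, at 3531, 4687, 5309 and 6451 TPM in deltaC/deltaC and at 7613 to 10108 TPM in WT. No library of one genotype entered the range of another, and the log2 fold change between the mutants was -1.15 (SE 0.14, adjusted p = 0.000426). Ocln (occludin) stood at 39.8, 17.3, 24.5 and 17.2 TPM against 51.4, 87.2, 110 and 129 TPM (-1.88, SE 0.26, adjusted p = 0.00109), with JE3 close to KE4. Lsr (angulin-1) and Marveld2 (tricellulin) form the contacts where 3 cells meet. Lsr had 160, 97.6, 126 and 130 TPM against 249, 344, 391 and 425 TPM (-1.41, SE 0.13, adjusted p = 0.000145). Marveld2 had 10.4, 6.43, 6.04 and 9.11 TPM against 15.6, 26.2, 19.6 and 27.3 TPM (-1.42, SE 0.23, adjusted p = 0.00228). The groups were apart for both, and with the letter term the differences were -1.14 for Lsr and -0.36 for Marveld2.

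Igsf5 (JAM4) stood at 1.25, 1.15, 1.70 and 1.78 TPM against 1.82, 4.86, 5.57 and 7.53 TPM (-1.66, SE 0.31, adjusted p = 0.00608), and JE3 was just above the knockout libraries. Mpp7, a scaffold protein, had 5.86 to 6.63 TPM against 11.6 to 16.5 TPM (-1.13, SE 0.16, adjusted p = 0.00118), and here deltaC/deltaC lay within the WT range of 11.5 to 20.1 TPM. Usp53 fell by 1.21 (adjusted p = 0.00792). Tjp1 (ZO-1), at 85.1 to 136 TPM against 121 to 229 TPM, fell by 0.61 (adjusted p = 0.045), and it lost the test without JE6, LE6, JE4, LE2, LE5, ME1, ME4 or ME5 (log2 fold change -0.49 to -0.66). The 14 members that did not pass ran from Cldn1 at -2.31 (adjusted p = 0.0599) to Jam3 at 0.30 (adjusted p = 0.163). Among them Esam (-0.03, adjusted p = 0.912) and F11r, which encodes JAM-A (0.12, adjusted p = 0.365), lay near 0. Ildr2 (-1.13), Patj (-0.93), Jam2 (-0.70) and Pard6g (-0.60) lay lower. With the letter term 2 of the list were called lower, the median was -0.58 and 21 of 22 kept their direction.

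**Figure D3:**
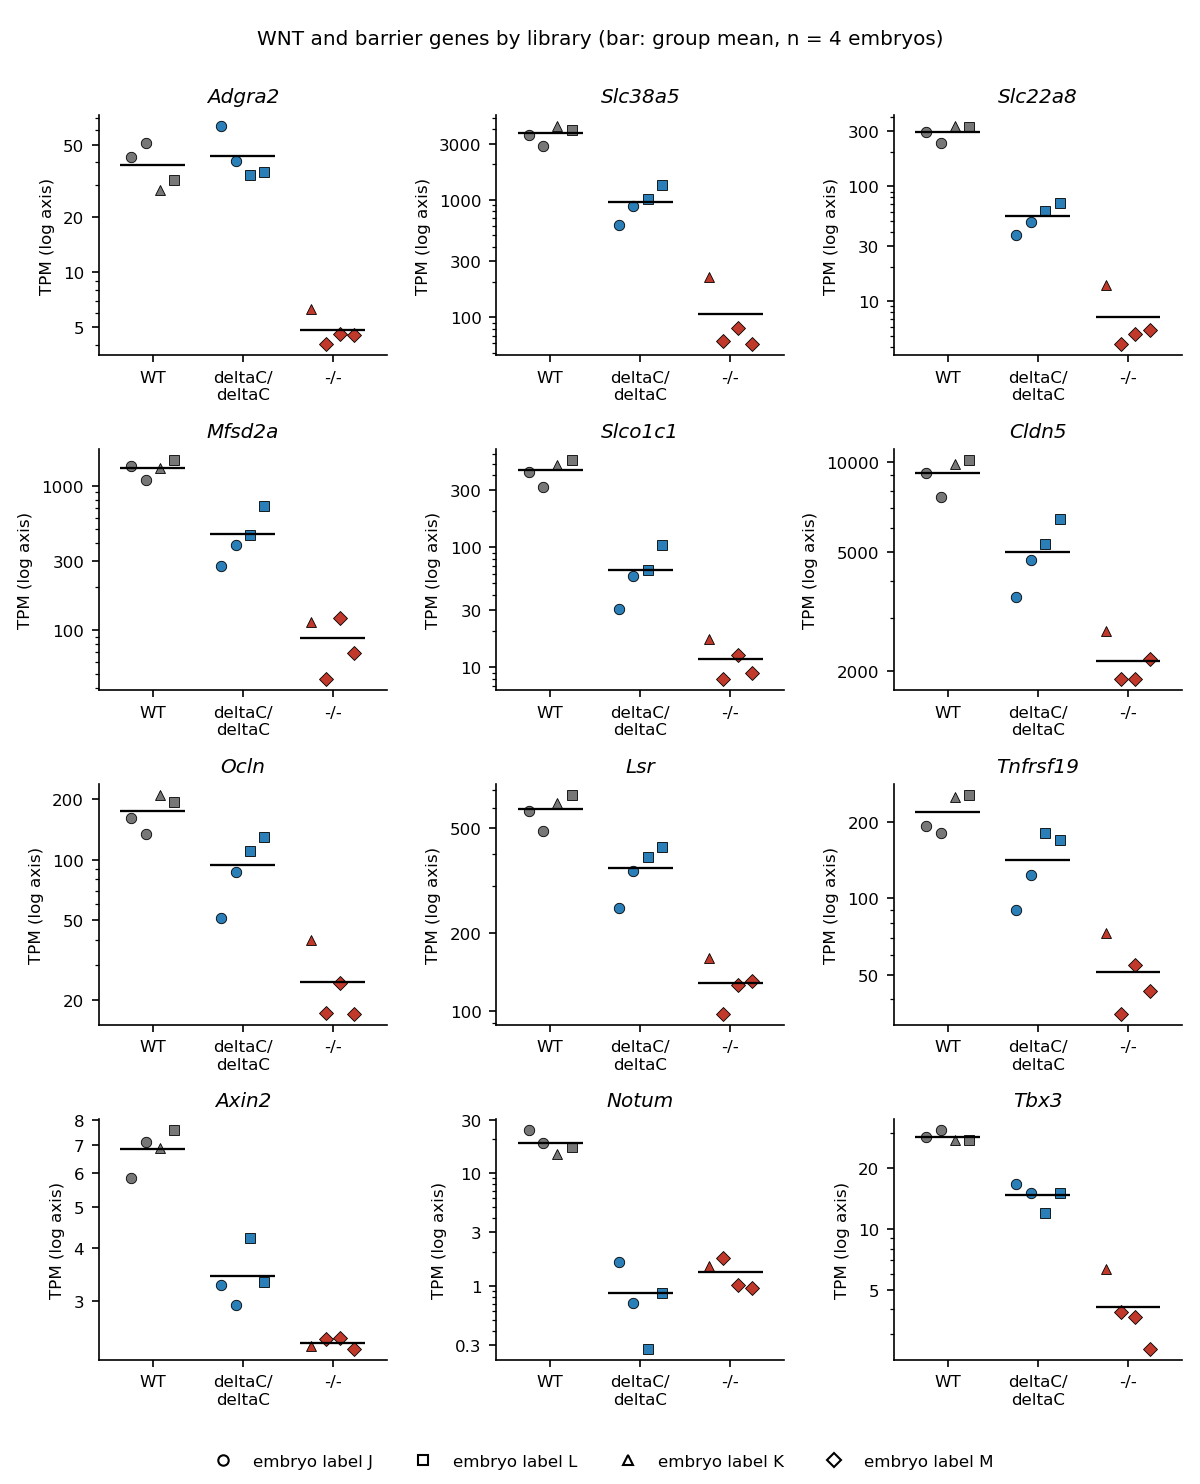
TPM in every library (log axes) of Adgra2, transporters, junction genes, WNT target genes and Tbx3 in WT, deltaC/deltaC and Gpr124-/- embryos; each point is 1 embryo, the shape gives the label letter and the bar is the mean of 4. Transporter and junction genes step down from WT to deltaC/deltaC to Gpr124-/-, with KE4 the highest knockout in most panels, while Notum is low in both mutants (0.278 to 1.79 TPM) against 14.9 to 24.3 TPM in WT.

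Of the components that receive the WNT signal, Adgra2 and Fzd6 passed the test, both lower in the knockout. Of 23 tested genes of the receptor complex (Frizzleds, LRPs, RECK and intracellular proteins), Adgra2 was the 1 called, and the log2 fold changes ran from -3.17 to 1.60 around a median of 0.03. A member was called higher without JE3, without KE4, with DESeq2 and with limma. Fzd6 stood at 90.2, 73.8, 118 and 73.6 TPM against 132, 168, 156 and 176 TPM and fell by 0.79 (SE 0.12, adjusted p = 0.00209). Fzd4, the main Frizzled of brain endothelium, was at 89.2 to 108 TPM in Gpr124-/- and 52.4 to 98.4 TPM in deltaC/deltaC (0.32, SE 0.14, adjusted p = 0.191). Reck was at 17.9 to 19.7 TPM against 13.9 to 27.9 TPM (-0.24, SE 0.14, adjusted p = 0.339), and Lrp6 differed by 0.03 (SE 0.19, adjusted p = 0.947). For genes of PDZ proteins the differences were -0.55 for Magi3 (SE 0.17, adjusted p = 0.0643) and 0.17 for Dlg1 (SE 0.22, adjusted p = 0.685). Dvl1, a Dishevelled protein of the WNT pathway, differed by 0.24 (SE 0.25, adjusted p = 0.604). The mutants overlapped for Fzd4, Reck, Lrp6, Magi3, Dlg1 and Dvl1. Wnt7a and Wnt7b, the ligands, were at 0.471 to 0.723 TPM and 1.25 to 3.16 TPM in the 8 libraries. Of 8 ligand and secretion genes, Wnt5a (-0.84, adjusted p = 0.02) and Wls (-0.69, adjusted p = 0.0339), which ferries WNT proteins to the surface, passed the test as lower. Wnt5a lost it without JE4, LE5 or ME4 (log2 fold change -0.67 to -0.83), and Wls without JE4, LE2, LE5, ME1, ME4 or ME5 (-0.56 to -0.74).

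Of the WNT target genes, Tnfrsf19, Lef1 and Apcdd1 passed the test, all lower in the knockout. Of 21 tested feedback and target genes, 2 were called lower, 9 did not overlap between the mutants and 10 had an unadjusted p under 0.05 (median -0.04), where 22.8% of all tested genes had such a p. The count called lower was 1 without JE3, JE4, ME1, ME4 or ME5, and 1 was called higher without KE8 or JE3. The letter term left none called lower and 1 higher, with a median of -0.24 and Tnfrsf19 at -1.04 (adjusted p = 0.071). Tnfrsf19 (TROY) stood at 73.0, 35.0, 54.6 and 43.2 TPM against 90.1, 123, 181 and 170 TPM and fell by 1.41 (SE 0.20, adjusted p = 0.00128), without overlap. Lef1, a transcription factor that partners beta-catenin, had 31.5, 22.5, 26.3 and 20.9 TPM against 34.6, 37.8, 36.3 and 40.9 TPM, the last group almost at the WT range of 38.4 to 40.6 TPM. It fell by 0.53 (SE 0.10, adjusted p = 0.00715). Apcdd1, an inhibitor induced by WNT, had 49.2, 27.6, 69.2 and 66.9 TPM against 354, 159, 114 and 145 TPM (-1.89, SE 0.50, adjusted p = 0.0324), and it lost the test without JE3, JE4, KE4, ME1, ME4 or ME5 (-1.30 to -2.05). The 2 other libraries of letter J, both WT, had 885 and 915 TPM of Apcdd1, against 321 and 337 TPM in LE6 and KE8. In deltaC/deltaC JE3 was high at 354 TPM, while JE4 at 159 TPM lay close to LE5 at 145 TPM.

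The feedback genes Axin2, Nkd1 and Notum lay well below WT in both mutants. Axin2 stood at 2.36, 2.45, 2.46 and 2.32 TPM in Gpr124-/-, at 3.28, 2.94, 4.22 and 3.33 TPM in deltaC/deltaC and at 5.85 to 7.59 TPM in WT. The mutants did not overlap, but the difference of -0.48 (SE 0.15, adjusted p = 0.0646) missed the threshold. Nkd1 stood at 13.6, 11.4, 15.3 and 14.0 TPM against 48.6, 41.1, 16.9 and 23.6 TPM (-1.28, SE 0.38, adjusted p = 0.0543), where the deltaC/deltaC libraries of letter J were above those of letter L. Notum, which strips the lipid from WNT proteins, stood at 1.51, 1.79, 1.03 and 0.953 TPM against 1.62, 0.709, 0.278 and 0.872 TPM (0.53, SE 0.43, adjusted p = 0.493). Its mutant libraries overlapped, whereas WT had 14.9 to 24.3 TPM. Against WT in the same fit, Notum changed by -3.88 in Gpr124-/- and -4.41 in deltaC/deltaC, Axin2 by -1.56 and -1.07, and Slc38a5 by -5.17 and -2.02. Among 11 secreted antagonists, Apcdd1 and Wif1 were called lower and Sost higher. Wif1 (-2.01, adjusted p = 0.0476) and Sost (1.99, adjusted p = 0.0489) were under 5 TPM everywhere and each lost the test in most leave-one-out fits.

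Of the genes called in the lists other than cell markers, 58 of 88 had a RefSeq promoter window in GRCm38.p6 (250 bases before to 50 after a start), and 2 of them, Slc7a1 and Tnfrsf19, held the TCF/LEF letters CTTTGAT on either strand in the 250 bases before a start. TCF and LEF proteins carry the beta-catenin signal to DNA. The bases of the 2 windows before the start are shown because both genes were lower in the knockout; they run 5′ to 3′ along the gene, with the matching letters in capitals, here as the reverse complement. Slc7a1 lies at chr5:148392816-148393065 and Tnfrsf19 at chr14:61037988-61038237, both on the minus strand.
Slc7a1: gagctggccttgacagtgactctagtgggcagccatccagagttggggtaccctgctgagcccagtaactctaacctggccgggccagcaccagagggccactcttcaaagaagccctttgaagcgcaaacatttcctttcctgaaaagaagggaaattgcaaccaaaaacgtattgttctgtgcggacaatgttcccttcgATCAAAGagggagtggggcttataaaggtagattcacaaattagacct
Tnfrsf19: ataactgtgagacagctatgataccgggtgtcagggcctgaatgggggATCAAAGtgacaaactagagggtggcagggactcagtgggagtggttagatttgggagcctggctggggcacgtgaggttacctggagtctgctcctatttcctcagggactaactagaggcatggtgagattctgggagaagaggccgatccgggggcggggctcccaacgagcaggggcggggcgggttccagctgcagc
The letters begin 48 bases before the start of Slc7a1 and 202 before that of Tnfrsf19. Over whole windows, they occurred at 11 of 210 called lower genes with a window (5.24%), at 10 of 313 called higher genes (3.19%) and at 332 of 11053 tested genes (3.0%); of all 32851 windows 3.73% held them. The SOX letters ACAAAG, which overlap the TCF/LEF letters by 5 bases in reverse complement, occurred at 16.2%, 19.5% and 16.7% of the same genes. A match of letters is a description of the sequence and not of binding.

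Of 28 tested endothelial transcription factors, 3 were called lower, 6 passed the test as lower and 1 as higher (median -0.37). Without JE3 1 of the factors was called higher. Once the letter was a term, 1 of the factors was called lower and 1 higher, and the median was -0.12. Tbx3, a T-box repressor, stood at 6.32, 3.88, 3.65 and 2.55 TPM against 16.7, 15.1, 12 and 15.2 TPM (-1.84, SE 0.23, adjusted p = 0.000563). It was apart in all 3 genotypes, with 27.6 to 31.1 TPM in WT. Hopx, a homeodomain protein without DNA binding, had 0.648 to 1.36 TPM against 2.11 to 3.83 TPM (-1.50, adjusted p = 0.00901), and the fatty acid sensor Ppard had 3.33 to 4.67 TPM against 6.39 to 8.62 TPM (-0.84, adjusted p = 0.00332). Foxf2, a forkhead factor needed for the barrier, stood at 107, 71.4, 98.1 and 83.9 TPM against 242, 183, 117 and 146 TPM (-0.94, SE 0.29, adjusted p = 0.0627). The J libraries were the highest of deltaC/deltaC for Foxf2, and of WT as well, at 301 and 341 TPM against 180 and 192 TPM.

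Some genes of permeable vessels were higher in the knockout. Of 18 genes of transcytosis, fenestrae and lipid uptake, 6 were called higher, 9 passed the test as higher, and Mfsd2a alone passed as lower (median 0.69). In the fit with the letter term, 2 were called higher and none lower, and the median was 0.66. Gpihbp1, which anchors lipoprotein lipase on capillaries outside the brain, stood at 179, 314, 278 and 333 TPM in Gpr124-/- and at 44.7, 51.9, 42.3 and 47.3 TPM in deltaC/deltaC. The deltaC/deltaC libraries were tightly grouped, the WT range was 18.2 to 27.8 TPM, and the log2 fold change was 2.61 (SE 0.20, adjusted p = 3.94e-05). Cd300lg (nepmucin), a sialomucin of peripheral capillaries, stood at 22.9, 40.6, 34.0 and 52.9 TPM against 2.20, 3.20, 0.653 and 1.95 TPM (4.25, SE 0.51, adjusted p = 0.000432). Cd36, a fatty acid receptor, had 4.19, 7.47, 9.92 and 5.98 TPM against 1.63, 0.772, 0.498 and 1.28 TPM (2.70, SE 0.38, adjusted p = 0.00118). The fatty acid binding protein Fabp4 had 33, 137, 119 and 152 reads in the knockout and 3, 3, 0 and 3 in deltaC/deltaC, and passed the test (adjusted p = 0.000319). Its relative Fabp5 rose by 1.55 (SE 0.25, adjusted p = 0.00228). Between deltaC/deltaC and WT the log2 differences were 0.21 for Cd36 and 0.24 for Fabp5. Cd36 is also expressed by platelets and Aqp1 by red cells. Erythroid marker sums were higher in every knockout library. Platelet sums were clearly higher in ME1, ME4 and ME5, while KE4 had 698 TPM beside 517 to 681 TPM in deltaC/deltaC.

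Emcn (endomucin) stood at 462, 449, 461 and 403 TPM in the knockout, 242, 293, 324 and 288 TPM in deltaC/deltaC and 158 to 212 TPM in WT, and rose by 0.67 (SE 0.08, adjusted p = 0.000426). Cavin2, a coat protein of caveolae, rose by 0.72 (SE 0.10, adjusted p = 0.00132), while Cav1, their core protein, differed by 0.04 (SE 0.14, adjusted p = 0.902). Plvap, which forms the diaphragms of fenestrae and caveolae, stood at 1710, 2938, 3381 and 4046 TPM against 1356, 1378, 333 and 329 TPM. The groups did not overlap, but deltaC/deltaC split by letter, and WT did too, with 487 and 427 TPM in JE1 and JE6 against 83.4 and 147 TPM in KE8 and LE6. The log2 fold change of Plvap was 1.82 (SE 0.64, adjusted p = 0.106), and with the label letter as a term it was 2.96 (SE 0.28, adjusted p = 0.00121).

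Some angiogenic and tip cell genes were higher in the knockout. Of 33 tested, 9 were called higher, 15 passed the test as higher and 2 as lower (median 0.56). Ednrb, an endothelin receptor, stood at 154, 211, 170 and 197 TPM against 34.5, 35.7, 39.7 and 31.1 TPM (2.41, SE 0.17, adjusted p = 3.94e-05). Kcne3, a potassium channel subunit, stood at 519, 1010, 692 and 898 TPM against 156, 166, 132 and 132 TPM (2.45, SE 0.21, adjusted p = 8.91e-05). Esm1 (endocan), a VEGF-induced proteoglycan, stood at 280, 623, 417 and 527 TPM against 90.7, 94.0, 85.9 and 70.2 TPM (2.48, SE 0.24, adjusted p = 0.000161). In all 3 genes deltaC/deltaC lay above WT as well, with differences of 1.52, 1.86 and 1.92 on the log2 scale, and KE4 was the lowest knockout library. Vegfa itself stood at 8.92, 19.9, 9.99 and 13.3 TPM against 3.53, 3.88, 2.61 and 1.96 TPM (2.15, SE 0.36, adjusted p = 0.00304), with deltaC/deltaC at the WT level of 1.72 to 3.53 TPM. Pgf, a ligand of the VEGF receptor FLT1, rose by 1.39 (adjusted p = 0.0108), Plaur, the urokinase receptor, by 1.11 (adjusted p = 0.0041) and the adhesion molecule Mcam by 0.79 (adjusted p = 0.00317).

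The main VEGF receptor gene Kdr was at 579 to 810 TPM against 519 to 1051 TPM (-0.15, SE 0.14, adjusted p = 0.55). The chemokine Cxcl12 was at 13.7, 11.7, 15.8 and 15 TPM against 18.7, 26.0, 28.8 and 32.1 TPM and fell by 0.86 (SE 0.14, adjusted p = 0.00304). Tek (TIE2) fell by 0.74 (adjusted p = 0.0157) and lost the test without ME1 (-0.65). Without JE6 1 of the list was called lower. The list's count called higher was lowest without ME5, at 5, and with the letter term 3 were called higher, the median was 0.49 and 32 of 33 kept their direction.

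**Figure D4:**
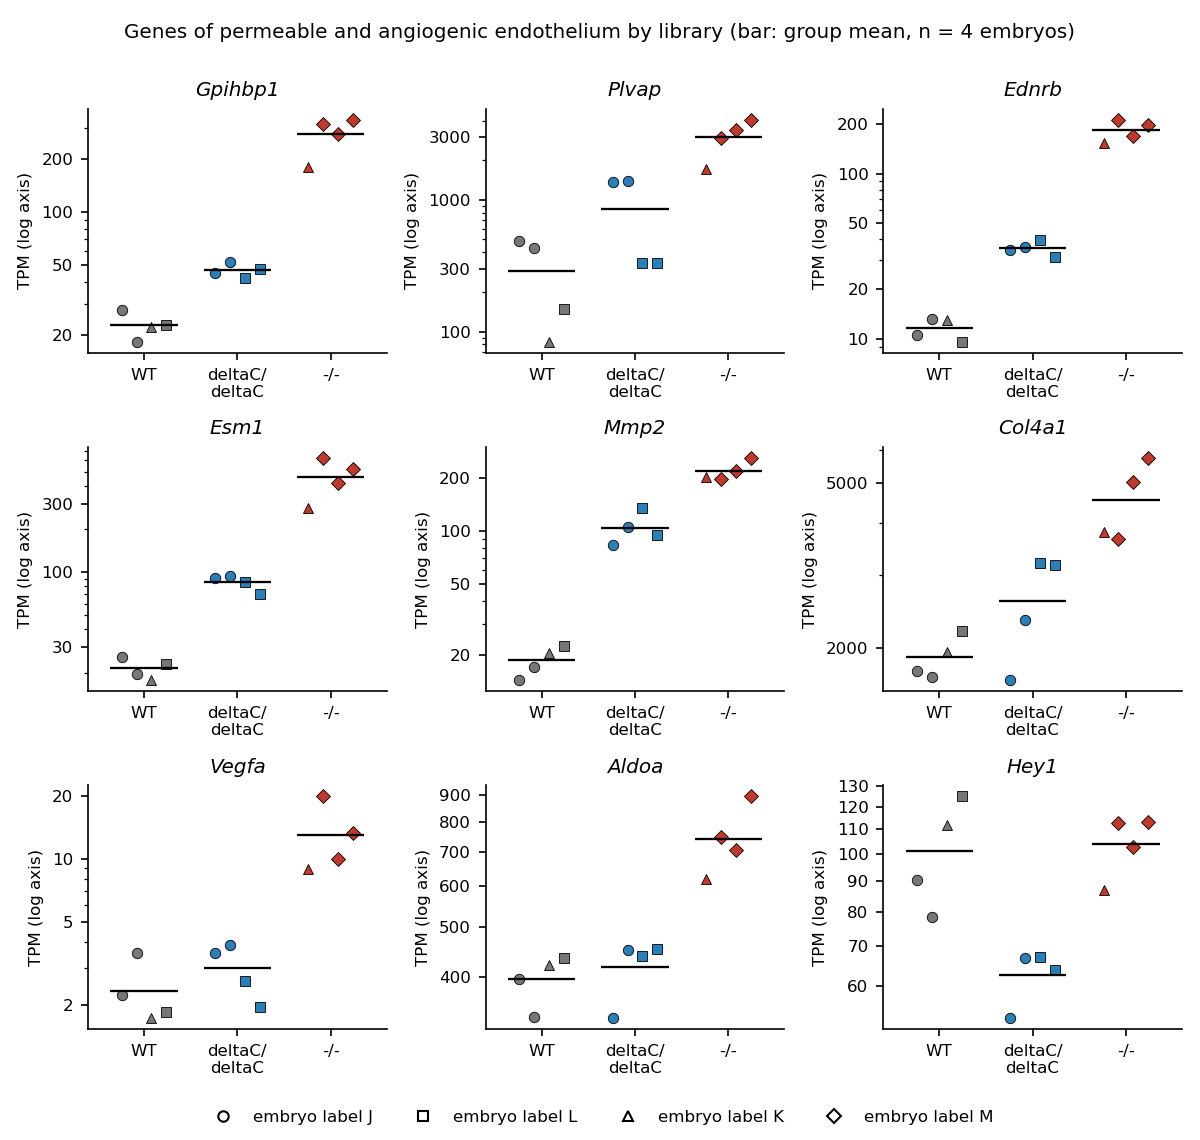
TPM in every library (log axes) of genes of permeable vessels, angiogenic genes, matrix genes, Aldoa and Hey1 in WT, deltaC/deltaC and Gpr124-/- embryos; each point is 1 embryo, the shape gives the label letter and the bar is the mean of 4. Gpihbp1, Ednrb, Esm1 and Mmp2 step up in both mutants, Vegfa and Aldoa rise in Gpr124-/- while deltaC/deltaC stays near WT, and Plvap splits by letter within WT and within deltaC/deltaC.

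In the Notch pathway 2 of 18 genes were called higher and 4 passed the test as higher, none as lower (median 0.51). The count called higher was 0 without ME1 and with limma, and 1 without JE3, JE4, LE2, LE5 or ME5 and with the letter term (median 0.23). Hey1, a Notch target of arterial endothelium, stood at 87.1, 113, 103 and 113 TPM in Gpr124-/- and at 52.9, 66.8, 67.1 and 63.8 TPM in deltaC/deltaC, with 78.3 to 125 TPM in WT. The knockout lay within the WT range and deltaC/deltaC below it. The difference between the mutants was 0.78 (SE 0.13, adjusted p = 0.00304), against WT it was 0.01 in the knockout and -0.77 in deltaC/deltaC. The guidance ligand Efnb3 (ephrin-B3) had the same order, with 9.51, 13.5, 10.2 and 15.8 TPM against 6.28, 5.97, 6.04 and 6.12 TPM and 12.1 to 12.9 TPM in WT (1.04, SE 0.19, adjusted p = 0.00436). The ligand Dll1 stood at 9.47, 15.3, 13.1 and 16.3 TPM against 5.28, 6.22, 9.37 and 7.24 TPM (1.01, SE 0.20, adjusted p = 0.00864), close to the fold threshold, and Dll4 differed by 0.28 (adjusted p = 0.412). None of 22 arterial genes was called, although 1 was without KE4 and 1 with the letter term, with 3 passing as higher and 2 as lower. Of the latter, Bsg (basigin), a transporter partner, stood at 1215 to 1541 TPM against 1684 to 3086 TPM, far below the WT 5634 to 8705 TPM (-0.71, adjusted p = 0.0059). Of 15 venous genes, 2 were called lower, among them Slc38a5, with 4 past the test as lower and 3 as higher. None was called higher, while 2 were without LE2 and 1 without JE4, KE4 or ME1. Vwf (von Willebrand factor), also a platelet product, passed as higher (0.94, adjusted p = 0.0134).

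Matrix and protease genes were mostly higher in the knockout where they passed the test. Of 53 basement membrane and matrix genes, 7 were called higher and 1 lower, with 16 and 3 past the test (median 0.34). Of 33 proteases and inhibitors, 5 were called higher and none lower, with 9 and 2 past the test (median 0.48). None of the matrix genes (median 0.12) and none of the proteases (median 0.30) was called higher with the letter term. Col4a1, a main collagen of the vascular basement membrane, stood at 3795, 3663, 5001 and 5724 TPM against 1675, 2340, 3200 and 3173 TPM (0.87, SE 0.17, adjusted p = 0.00809). Lamb1, a laminin chain, rose by 0.70 (adjusted p = 0.00896). Col13a1, a transmembrane collagen, stood at 9.54, 16.1, 11.4 and 17.4 TPM against 1.27, 2.36, 1.94 and 1.78 TPM (2.95, SE 0.30, adjusted p = 0.000191). Ccn4 (WISP1), described as a WNT-induced secreted protein, stood at 7.05, 16.9, 10.7 and 17.1 TPM against 0.854, 1.43, 2.19 and 2.39 TPM (3.0, SE 0.45, adjusted p = 0.00164). Ccn4 differed by 0.37 and Thbs1 by 0.23 with the letter term. Thbs2 rose by 1.65 (adjusted p = 0.00649). Thbs1, a major platelet protein, stood at 112, 464, 405 and 539 TPM against 74.2, 88.5, 160 and 123 TPM (1.85, adjusted p = 0.0146), with KE4 inside the deltaC/deltaC range. The part of platelet RNA in this difference was not tested.

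Spock2 (testican-2), a brain endothelial proteoglycan, went the other way, with 54.1, 21.1, 34.2 and 30.5 TPM against 117, 142, 171 and 253 TPM (-2.25, SE 0.25, adjusted p = 0.000293) and 384 to 539 TPM in WT. Mmp2, a gelatinase, stood at 203, 198, 217 and 258 TPM against 82.9, 106, 134 and 94.5 TPM (1.12, SE 0.15, adjusted p = 0.000698), and WT had 14.4 to 22.4 TPM. Its activator Mmp14 rose by 0.73 (adjusted p = 0.00478), and Adam12 by 1.93 (SE 0.34, adjusted p = 0.00379). Mmp25, a membrane-bound metalloproteinase, fell by 0.83 (adjusted p = 0.0044). Urokinase, Plau, was at 2.89 to 7.13 TPM against 0.728 to 2.19 TPM (1.99, adjusted p = 0.0174) and lost the test without JE4, LE5, ME1 or ME5 (1.72 to 1.90). Without ME5 2 of the proteases were called higher and without KE4 9, and without ME4 4 of the matrix genes were. The matrix genes called lower numbered 3 without KE4 and 2 without JE3 or ME5. Among 18 integrins 1 was called, and 3 passed as higher and 1, Itga4, as lower (-0.79, adjusted p = 0.0111). No integrin was called without JE1, JE4, LE2, LE5, ME1, ME4 or ME5, in the fit of the 8 mutant libraries, with limma or with the letter term, where the median went from 0.61 to 0.14. Without KE4 4 integrins were called, and without JE3 2.

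Glycolytic and hypoxia-responsive genes that passed the test were higher in the knockout with 1 exception. Of 40 tested, 5 were called higher, 15 passed the test as higher and 1 as lower, which was Slc2a1 (median 0.58, and -0.03 for deltaC/deltaC against WT). Aldoa, a glycolytic aldolase, stood at 620, 746, 706 and 896 TPM in Gpr124-/-, 332, 450, 439 and 452 TPM in deltaC/deltaC and 334 to 434 TPM in WT. The mutants were apart, with a log2 fold change of 0.88 (SE 0.12, adjusted p = 0.000925), while deltaC/deltaC differed from WT by -0.01. Ldha (lactate dehydrogenase) stood at 1341, 1581, 1644 and 1888 TPM against 769, 1072, 1119 and 1041 TPM (0.74, SE 0.12, adjusted p = 0.00215), also at the WT level of 779 to 1034 TPM in deltaC/deltaC. Pdk1, which holds pyruvate back from mitochondria, stood at 17.8, 20.5, 20.6 and 16.1 TPM against 8.88, 11.6, 8.93 and 9.99 TPM (0.96, SE 0.12, adjusted p = 0.000526). Pgk1 rose by 0.64 (adjusted p = 0.00426) and Bnip3, a mitophagy receptor, by 1.17 (adjusted p = 0.00272). Slc16a3 (the lactate exporter MCT4) rose by 2.33 (SE 0.25, adjusted p = 0.000235), Egln3, an oxygen sensor, by 1.50 (adjusted p = 0.00125), P4ha2 by 2.10 (adjusted p = 0.00193) and Ndrg1 by 0.97 (adjusted p = 0.00197). For Slc16a3, Egln3 and Ndrg1 deltaC/deltaC was also above WT, by 1.27, 1.09 and 0.67 on the log2 scale (adjusted p up to 0.024). Red cells also use glycolysis, and their markers rose in the same libraries. With the letter term none of the list was called, the median was 0.26 and 32 of 40 kept their direction.

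Proliferation genes did not separate the mutants. None of 39 tested passed the test, with 7 at an unadjusted p under 0.05 (22.8% of all tested genes were), and the median was 0.07; DESeq2 and limma called none, and 1 was called with the letter term. Mki67 stood at 48.2 to 60.7 TPM in Gpr124-/- and at 47.3 to 60.5 TPM in deltaC/deltaC (0.03, SE 0.07, adjusted p = 0.864), and Mcm3, with the lowest p of the list, differed by 0.40 (SE 0.14, adjusted p = 0.116). Of 29 genes of the integrated stress response, 1 was called higher and 1 lower (median 0.28). The first was lost without JE4, LE5, ME1 or ME5, and the second without JE1, JE6, LE2, LE5, KE4, ME1 or ME4. Both were lost in the fit of the 8 mutant libraries and with the letter term (median 0.09). Atf4, the central factor of this response, stood at 247, 274, 272 and 313 TPM against 154, 202, 220 and 190 TPM (0.58, SE 0.10, adjusted p = 0.0032). Of 26 leukocyte adhesion and inflammation genes, Ackr3, a scavenger receptor for CXCL12, was called higher (1.43, adjusted p = 0.00754) and H2-K1, a class I histocompatibility gene, lower (-1.60, adjusted p = 0.00807), and neither was called with the letter term. Without LE2 or LE5 2 of the list were called higher. H2-K1 was 1 of the genes that followed KE8, with 32.3 TPM there and 71.9 to 94.9 TPM in the other WT libraries.

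Prostaglandin genes changed in both directions. Of 20 tested, 6 were called higher and 2 lower (median 0.37). None of these genes was called higher and 1 was called lower with the letter term, where the median was 0.02 and Hpgd differed by 0.26. Ptges, which makes prostaglandin E2, stood at 1.85, 0.763, 0.703 and 1.38 TPM against 6.37, 10, 12.1 and 21.3 TPM (-3.35, SE 0.35, adjusted p = 0.000218), with 56.3 to 80.3 TPM in WT. Ptgis, which makes prostacyclin, stood at 66.6, 38.3, 44.8 and 53.7 TPM against 87.6, 140, 144 and 141 TPM (-1.28, SE 0.15, adjusted p = 0.000435), and its WT level was 120 to 162 TPM. Ptges was thus far below WT in both mutants, and Ptgis in the knockout. Hpgd, the main enzyme of prostaglandin breakdown, stood at 39.7, 40.8, 44.6 and 24.2 TPM against 12.8, 14.6, 17.7 and 12.8 TPM (1.40, SE 0.28, adjusted p = 0.00771). The cyclooxygenase Ptgs1 (1.18, SE 0.16, adjusted p = 0.00106) and the thromboxane receptor Tbxa2r (1.25, SE 0.20, adjusted p = 0.00229) rose too, and both are also platelet genes. The part of platelet RNA in these differences was not tested.

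Of 46 axon guidance genes, 6 were called higher and 2 lower, with 11 and 3 past the test (median 0.20). The letter term left 2 called higher and none lower. Sema6a, a semaphorin that sustains VEGFR2 signalling, stood at 127, 77.5, 101 and 79.3 TPM against 146, 165, 223 and 221 TPM (-0.93, SE 0.14, adjusted p = 0.00136), and deltaC/deltaC lay around the WT range of 160 to 182 TPM. Epha7 fell by 1.60 (adjusted p = 0.00229) and Epha3 by 1.58 (adjusted p = 0.00637), both Eph receptors under 12 TPM. Robo1, a SLIT receptor, stood at 30.9, 31.4, 39.9 and 33.5 TPM against 14.0, 20.5, 26.7 and 21.6 TPM (0.77, SE 0.14, adjusted p = 0.00413), and Sema6b rose by 1.26 (adjusted p = 0.00533). The count called higher was lower without ME5 (1), LE2, LE5 or ME1 (2 each) and JE4 (3). Of 37 TGF-beta and BMP genes 2 were called higher, with 4 past the test each way (median 0.07), among them Tgfb2, which fell by 0.74 (adjusted p = 0.00546). None of these was called without LE2, LE5 or ME5, and 1 was without JE4 or ME1 and with the letter term. The median was 0.32 without JE3.

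**Figure D5:**
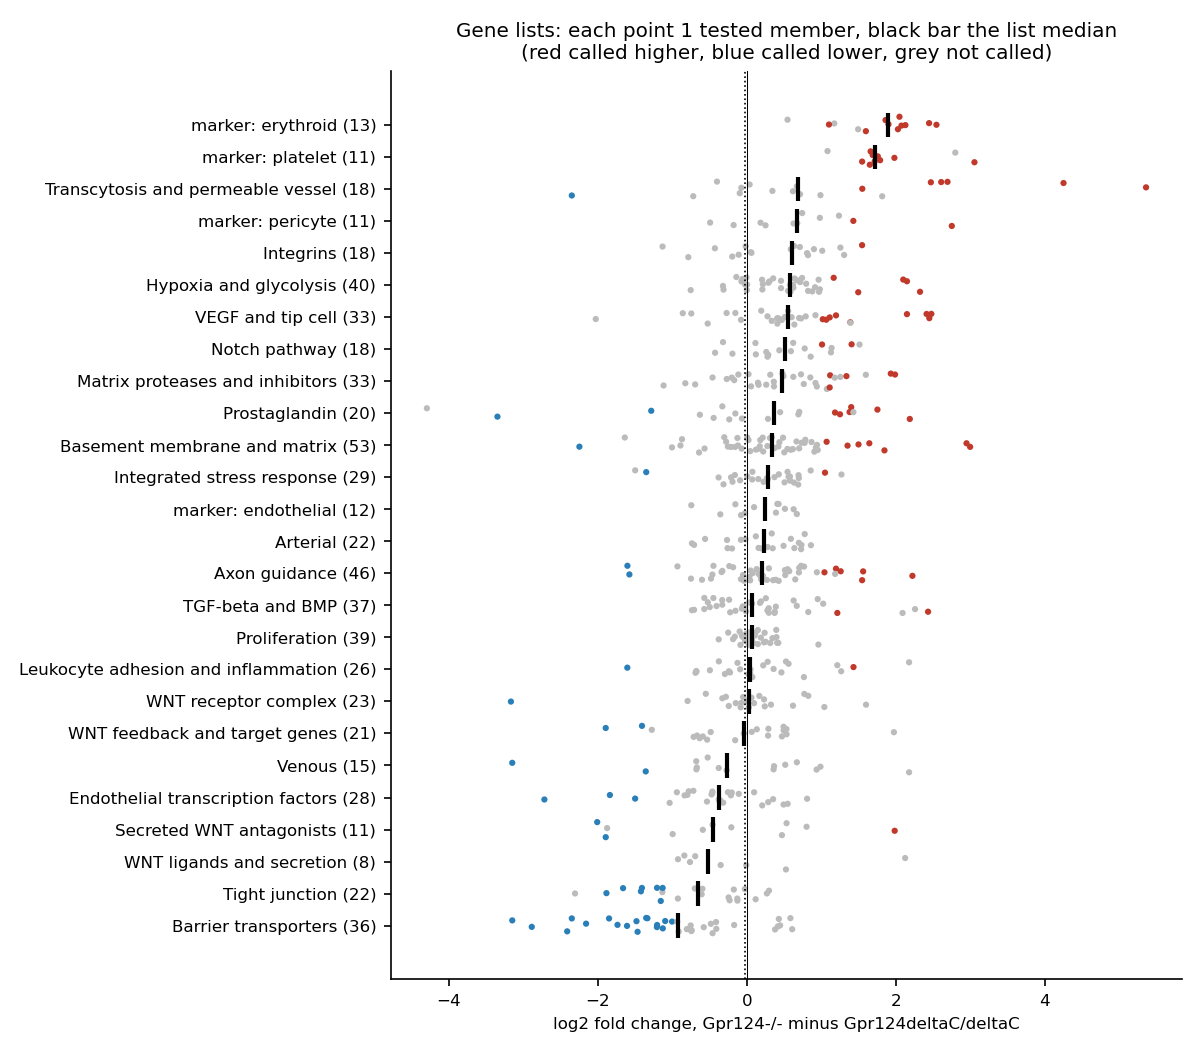
Log2 fold change of Gpr124-/- over deltaC/deltaC (horizontal axis) for each tested member of the gene lists shown, ordered by list median, with the number tested in brackets; red points were called higher, blue lower and grey were not called, black bars are list medians and the dotted line is the median of all tested genes (-0.02). Barrier transporters (median -0.92) and tight junction genes (-0.65) lie lowest, erythroid (1.90) and platelet (1.72) markers highest, and proliferation genes (0.07) and the WNT receptor complex (0.03) lie near 0.

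The 15 largest falls and the 15 largest rises among called genes that averaged 8 CPM or more without overlap held further metabolic and endothelial genes. Far2, a fatty acyl-CoA reductase, fell by 3.17 (adjusted p = 0.000135) and Apod, a lipid carrier, by 2.66 (SE 0.22, adjusted p = 6.12e-05), the latter from 210 to 361 TPM in deltaC/deltaC to 28.8 to 70.7 TPM. Slc7a8, a neutral amino acid transporter outside the barrier list, stood at 25.7, 6.09, 11.8 and 7.88 TPM against 60.0, 65.2, 119 and 117 TPM (-2.77, SE 0.37, adjusted p = 0.000842), and Dpp4, a peptidase, also fell by 2.77 (adjusted p = 0.00184). In all of these deltaC/deltaC lay below WT in the mean and the knockout lower still. Gm10020 and A530016L24Rik, both without a known role, were high in 2 WT libraries and low in the other 2, and Gm10020 lost the test without JE4, LE2, ME1, ME4 or ME5 (-3.81 to -4.00).

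Among the rises, Ramp3, a partner of the adrenomedullin receptor, stood at 38.6, 58.1, 53.8 and 65.5 TPM against 7.54, 10, 8.74 and 7.20 TPM (2.73, SE 0.21, adjusted p = 3.94e-05). Tlx1, a homeobox gene, stood at 12, 18.1, 27.1 and 26.6 TPM against 2.89, 3.09, 2.40 and 2.23 TPM (3.0, SE 0.35, adjusted p = 0.000358) and was at 0 to 0.141 TPM in WT. With the letter term Tlx1 stood at -1.90 (SE 1.03). That value rests in part on the WT libraries, where Tlx1 was near 0 TPM, so it shows no reversal. Abcc9, a potassium channel subunit known from pericytes, stood at 7.5, 14.4, 10.5 and 13.9 TPM against 1.69, 2.57, 1.71 and 1.12 TPM (2.75, SE 0.39, adjusted p = 0.00118). The pericyte marker Kcnj8, whose channel pairs with it, was called too (1.43, adjusted p = 0.0324). It had 4.62 to 8.90 TPM in the knockout and 4.77 to 8.45 TPM in WT. It lost the test without JE3, LE2, LE5, ME1, ME4 or ME5 (1.20 to 1.47). With the letter term the differences were 0.14 for Kcnj8 and 1.04 for Abcc9. Lrrc3b rose by 3.33 (adjusted p = 0.000509), the non-coding RNA Neat1 by 2.99 (adjusted p = 0.00159) and Gm7993 by 2.97 (adjusted p = 0.0127). Irf8 (3.42, adjusted p = 0.00093) and Dock8 (3.05, adjusted p = 0.00292) are known from blood cells. Hbq1b (3.07, adjusted p = 0.0052) is a globin and stood at -0.21 (SE 0.74) with the letter term. All 3 were lowest in KE4 among the knockout libraries. Also among the 30 were Ptges, Adgra2, Slc38a5, Slc22a8, Cd300lg, Ccn4 and Col13a1, given above, and the 6 genes that followed KE8. Of those, Rbm45 and 6330403K07Rik fell by 2.78 and 2.83 and Mocs1 and Olfr1372-ps1 rose by 3.78 and 4.30, the last losing the test without JE4, LE2 or LE5 (4.22 to 4.33).

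Xist and 4 Y-linked genes were read as a check of the embryos. Ddx3y was at 56.4 to 88.8 TPM in KE4, ME4 and LE2 and at most 0.110 TPM in the other 5 mutant libraries, so the mutants held unequal numbers of libraries with Y-linked expression, 2 of 4 and 1 of 4. Xist was at 30.951 to 73.911 TPM in those other 5, lowest in ME5. With X and Y genes left out of the test 428 genes were higher and 314 lower.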

How the data were processed

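CD31+/CD140b-/CD45- cells were sorted from single E15.5 forebrains, and cDNA was made with an ultra-low input poly(A) kit and sequenced as paired-end reads. The authors deposited whole-number read counts and TPM per Ensembl gene. Per the labels, bcl2fastq 2.17 and mm10 were used, while aligner, counter and strand setting are not given in the sources used here, so antisense and overlapping genes cannot be told apart. Of 49315 gene identifiers, 49056 matched GENCODE vM21. Groups come from the labels, and each library is 1 embryo.

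Counts of all 12 libraries were fitted with edgeR 4.0.16 (R 4.3.3; TMM factors 0.946 to 1.04; filterByExpr) with genotype as the term, and the contrast of the 2 mutants was tested by quasi-likelihood with Benjamini-Hochberg adjustment over 16637 genes. A called gene had an adjusted p below 0.05 and changed by more than 1 on the log2 scale, the thresholds of the study. TPM were used as deposited for levels. The scripts were tested on simulated data. DESeq2 1.42.0 and limma 3.58.1 (log2 of TPM plus 1 or 0.1) served as alternatives, beside other factors, filters, a term for the label letter and each library left out.

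Values are given for Adgra2, the 15 largest rises and 15 largest falls (mean of at least 8 CPM, no overlap), list members in order of p (up to 6 per list in every library), called genes within 10 Mb of Adgra2 and sex-linked genes. Values in every library of Foxf2, Ldha, Notum, Plvap and Thbs1 lie outside this rule and were chosen after they were seen. The comparison and the gene lists were chosen with earlier results of these data known. Promoter windows are from RefSeq (GRCm38.p6). The receptor's protein sequence was not used here. Some genes that the rule names are not reported here.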

Additional observations from a re-analysis of the deposited data

Results flagged for a closer look

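In 13 of 300 groups of 4 libraries 1 library lay far from the other 3 by Dixon's test at its 95% level, which chance alone gives in about 1 of 20 groups. The number of flags is below that rate, so by themselves they do not show that a library stands apart. KE4 accounted for 3 of them, with Slc38a5 at 221 TPM, Slc22a8 at 13.9 TPM and Dusp4 at 7.64 TPM, the first pair above and the last below the other knockout libraries. JE3 accounted for 4, with Rbm45 at 52.4 TPM and Dvl1 at 14.6 TPM above the other deltaC/deltaC libraries, and Ptgis at 87.6 TPM and Aldoa at 332 TPM below them. JE4 was high for Hmga1b, at 99.2 TPM, and for Alas2, at 32.8 TPM. LE5 was low for AI506816, at 4.26 TPM, and high for Neat1, at 1.07 TPM. Among the knockout libraries ME1 was low for A530016L24Rik, at 1.42 TPM, and ME5 was high for Vwf, at 245 TPM.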

How the results depend on the processing

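Counts of 444 genes higher and 322 lower changed by over 1.5 times in some settings. With the label letter as a term they were 160 and 49, and 56 of the 766 genes were still called. With limma on log2(TPM + 1) they were 272 and 210, without a filter 207 and 179, and on log2(TPM + 0.1) 261 and 273. Without the fold threshold they were 821 and 647. With 1 library left out they ranged from 267 to 597 and from 237 to 411, and higher genes numbered 268 without ME1 and 267 without ME5. Leaving out both letter K libraries, chosen after seeing the data, gave 627 and 420. DESeq2 gave 568 and 394, a mean of at least 50 counts 323 and 225, and the 8 mutant libraries alone 407 and 281. Of 145 named genes 124 passed the test, 108 in every leave-one-out fit, 20 with the letter term. The letter fit is far less able to make calls, so a call lost there does not by itself show a smaller change. Estimates were smaller there for many genes, such as Thbs1 (0.23 in place of 1.85) and Marveld2 (-0.36 in place of -1.42). Others changed less, such as Slc38a5 (-2.28 in place of -3.15), and Plvap (2.96 in place of 1.82) was larger. With the letter term the estimate changed sign for Hmga1b (0.25), 6330403K07Rik (0.28), AI506816 (-0.045), Hbq1b (-0.21), Tlx1 (-1.90), P2ry12 (-0.20) and Plekha2 (-0.36). In that order the SE were 0.60, 0.26, 0.25, 0.74, 1.03, 0.44 and 0.37, so a reversal is not shown. The first 3 were picked because KE8 lay with the knockout, which by itself puts this value near 0. Within a letter KE4 against KE8 is the only contrast of the knockout, and the cause was not tested. No paired analysis was possible because no label letter holds both mutants and nothing says that the embryo numbers after the letter pair embryos; within a letter a mutant can be set against WT only.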
